A study of Mus musculus with 10 samples.

Results

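The genes described here are Trp53, which encodes the transcription factor p53, together with established p53 targets and members of the Bcl2 family. They were chosen by symbol: Trp53, Mdm2, Ccng1, Sesn2, Bax, Bbc3, Pmaip1, Bcl2l11, Bcl2 and Bcl2l1, 10 of the 52636 gene identifiers in the count tables. All 10 symbols matched 1 identifier each, and all 10 passed the filter on low counts, which left 16005 genes for testing. RNA was sequenced from E14 mouse embryonic stem cells, a common model of early differentiation. Unedited cells (WT, 2 libraries) were compared with cells from which a CTCF-binding element had been deleted (CBE-KO, 2 libraries; CTCF is a protein that organises chromatin loops), to ask which transcripts depend on that element. Both groups had been moved from medium with leukaemia inhibitory factor and inhibitors of MEK and GSK3 to medium without them, with retinoic acid added for 24 h. The labelled retinoic acid dose of 2 is printed with a unit read here as µM, and the labels do not say whether CBE-KO is 1 clone.

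p53 is held at a low level by Mdm2, a ubiquitin ligase that is itself a p53 target, and it is stabilised by stress such as DNA damage. It then activates genes that arrest the cell cycle, repair DNA or start mitochondrial apoptosis. In that branch, BH3-only proteins such as Bbc3 (PUMA), Pmaip1 (NOXA) and Bcl2l11 (BIM) bind anti-apoptotic Bcl2 proteins, and effectors such as Bax permeabilise the outer mitochondrial membrane. Pluripotent stem cells are known for abundant p53 and for a low threshold for apoptosis.

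The libraries held 14108038 to 15632960 counts, so that 3 counts, the floor used here, corresponded to 0.185 to 0.218 CPM (counts scaled to library size after TMM scaling). Replicates differed by more than sampling noise (chi-square per degree of freedom of 3.40 for WT and 2.70 for CBE-KO) and were counted separately. The deleted element is no gene, so the counts cannot check its absence. The libraries also differed in genes of the Y chromosome: Uty, Kdm5d, Ddx3y and Eif2s3y together had 0.727 to 0.821 CPM in WT and 129 to 130 CPM in CBE-KO. The labels name the same line for both groups, and this difference and the loss of the element cannot be told apart in any result below. Markers of pluripotent cells were detected in every library. Their summed level was 4870 to 5030 CPM in WT and 3660 to 3720 CPM in CBE-KO. Of these 10 markers, 8 were lower, 1 was higher (Nanog) and 1 did not pass the test (Esrrb). Nanog had 806 and 810 CPM in WT against 884 and 908 CPM in CBE-KO. Utf1 fell furthest, from 783 and 729 CPM to 226 and 248 CPM. Beside all marker counts given here, 43.1% of all tested genes passed, 21.5% as lower and 21.6% as higher. Of 8 fibroblast markers, which feeder cells would bring, Postn, Lum, Dcn and Twist2 were at 0 in every library. The summed level was 11.4 and 12.9 CPM in WT and 14.8 and 17.6 CPM in CBE-KO, and of the 2 tested, Col1a1 was higher (log2 fold change 0.88, edgeR adjusted p = 0.00290) and Thy1 did not pass. Extraembryonic endoderm markers summed to 112 to 115 CPM in WT and 135 to 140 CPM in CBE-KO, with 4 of 7 higher, 1 lower and 2 not past the test. Neural markers summed to 93.6 to 103 CPM in WT and 74.4 to 74.8 CPM in CBE-KO. Of the 6 tested neural markers, 3 were higher (Pax6, Map2 and Sox1), 2 were lower (Tubb3 and Rbfox3) and 1 did not pass. Mitochondrial transcripts took 1.81% to 1.96% of counts. The part of these differences in the results below was not tested. In bulk RNA, fewer cells of a type and less RNA per cell cannot be told apart.

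The sequences before the start sites are shown for 5 of the genes that fell in CBE-KO, because p53 acts through short elements in the DNA of its targets. Windows of 250 bases before RefSeq start sites on GRCm38.p6 were searched for 9 of the 10 genes, and Pmaip1 was left out. There were 14 windows, since some genes have several starts. A full p53 element is a pair of 10-base units with a short spacer. A single unit (its consensus is its own reverse complement, so that 1 search covers both strands) was found in 4 of the 14 windows (28.6%), 1 each for Trp53, Ccng1, Mdm2 and Bax, against 7.12% of 32536 promoter windows of the same length. Only exact matches to the consensus were counted. By that rule no window of these 9 genes held the full element, a pair of units with a spacer of at most 13 bases. The same rule found it in 0.0645% of all windows. In Ccng1 the 10 bases directly before the marked unit, agacctgccc, miss the consensus at 1 base. Such near matches were not counted, so a full element with a mismatch would be missed. Bases in capitals mark the single unit. Sesn2, the gene with the largest fall, is shown beside the others as a window without a match. The windows of Bbc3, Bcl2l11 and Bcl2l1, which also fell, and of Bcl2 held no unit either and are not shown. Whether the units have a part in the falls was not tested. The windows are chr4:132510457-132510706 (minus strand) for Sesn2, chr11:69580109-69580358 (plus) for Trp53, chr11:40755287-40755536 (minus) for Ccng1, chr10:117710759-117711008 (minus) for Mdm2 and chr7:45466899-45467148 (minus) for Bax, each written 5′ to 3′ and ending at the base before RefSeq's start site of that window.
Sesn2: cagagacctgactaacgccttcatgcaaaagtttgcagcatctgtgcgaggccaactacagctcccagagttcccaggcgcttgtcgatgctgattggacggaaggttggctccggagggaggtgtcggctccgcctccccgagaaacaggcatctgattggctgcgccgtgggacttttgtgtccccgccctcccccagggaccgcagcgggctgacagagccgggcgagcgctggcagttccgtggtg
Trp53: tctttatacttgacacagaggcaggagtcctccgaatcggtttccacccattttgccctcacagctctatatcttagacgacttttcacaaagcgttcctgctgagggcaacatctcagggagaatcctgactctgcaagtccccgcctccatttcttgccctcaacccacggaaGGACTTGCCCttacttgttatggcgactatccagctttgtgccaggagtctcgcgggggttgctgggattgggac
Ccng1: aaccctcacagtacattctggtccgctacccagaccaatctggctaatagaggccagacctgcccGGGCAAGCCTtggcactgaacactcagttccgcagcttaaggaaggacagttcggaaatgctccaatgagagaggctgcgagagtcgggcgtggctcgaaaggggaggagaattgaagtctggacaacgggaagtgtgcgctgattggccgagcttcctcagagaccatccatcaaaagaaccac
Mdm2: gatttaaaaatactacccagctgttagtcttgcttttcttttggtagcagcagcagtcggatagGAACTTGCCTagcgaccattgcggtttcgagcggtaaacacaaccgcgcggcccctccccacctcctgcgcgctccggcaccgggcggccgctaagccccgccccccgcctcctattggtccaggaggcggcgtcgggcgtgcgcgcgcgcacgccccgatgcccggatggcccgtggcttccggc
Bax: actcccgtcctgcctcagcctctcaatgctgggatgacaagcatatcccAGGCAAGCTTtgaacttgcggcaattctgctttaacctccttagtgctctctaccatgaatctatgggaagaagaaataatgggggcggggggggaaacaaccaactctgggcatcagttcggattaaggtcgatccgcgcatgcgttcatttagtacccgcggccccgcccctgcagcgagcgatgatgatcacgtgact
The unit began 75 bases before the start in Trp53, 185 in Ccng1, 186 in Mdm2 and 201 in Bax. A match is a description of letters and shows no binding. Elements of p53 targets are also known outside such windows, as in the first intron of Mdm2. GC content of the 14 windows was 47.6% to 81.6%, against a median of 52.4% over all windows.

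Expression of 8 of the 10 genes was lower in CBE-KO and none was higher, at the 0.05 threshold for the adjusted p of edgeR's quasi-likelihood test. Over the whole count matrix 43.1% of the tested genes passed, 21.5% as lower. At an unadjusted p under 0.05, 1 gene was higher, Bcl2, and DESeq2 called the same 8 genes, with 23.8% of its genes called. The median log2 fold change of the 10 genes was -0.39, against 0.01 over all tested genes, and 9 of the 10 values were negative. In all 10 genes both libraries of a group lay above both of the other, which held for 70.4% of tested genes. The falls were moderate: none reached a log2 fold change of -1, and the range was -0.79 to -0.17. Scaling by library totals alone moved the median of all genes to 0.11 and raised the percentage of called genes with a positive change from 50.2% to 67.0%. Under that scaling the 9 negative values stayed negative.

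**Figure D1:**
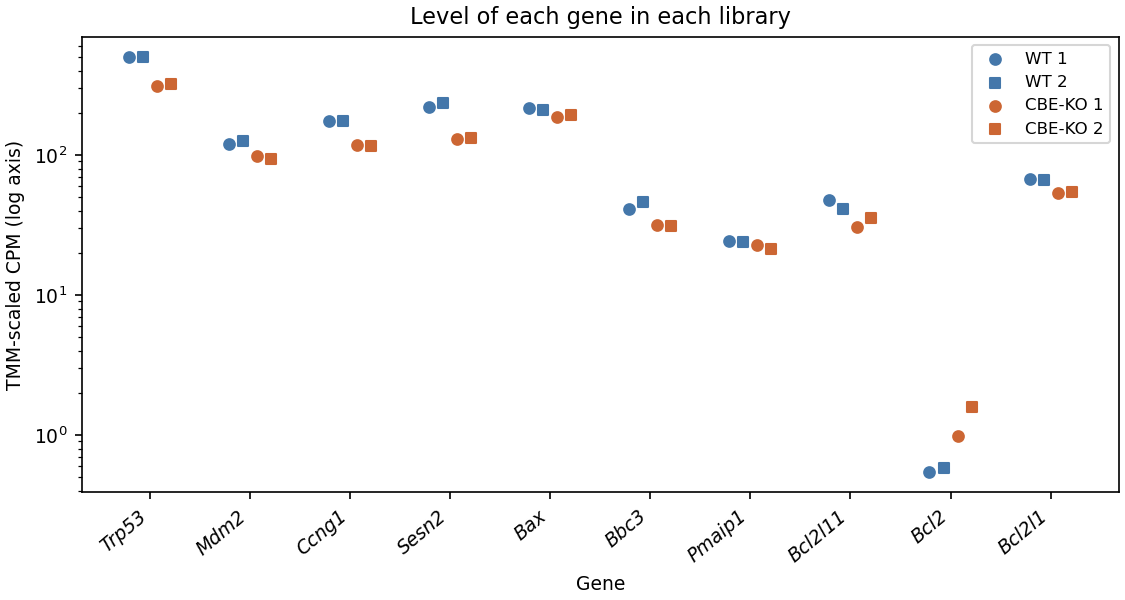
Level of the 10 genes in each library, as TMM-scaled CPM on a log axis, with WT in blue and CBE-KO in orange, replicate 1 as circles and replicate 2 as squares. Both CBE-KO points lie below both WT points for every gene but Bcl2, and heights are not comparable between genes because transcript lengths differ.

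Trp53 (ENSMUSG00000059552; GRCm38 chr11:69580348-69591873), the transcription factor itself, had 497 and 497 CPM in the WT libraries and 309 and 322 CPM in the CBE-KO libraries. Both CBE-KO libraries were low, and the gap between groups was much wider than that between replicates. Trp53 fell by 36.6% (log2 fold change -0.66 ± 0.05, SE, n = 2 each; edgeR adjusted p = 5.58e-09). Of all tested genes, 6.82% had a lower log2 fold change. Its processed pseudogene Trp53-ps had 0 counts in all 4 libraries, and how reads shared with it were counted is not stated.

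Mdm2 (ENSMUSG00000020184; chr10:117688875-117710758), the ubiquitin ligase that degrades p53, had 119 and 127 CPM in WT and 99.0 and 93.3 CPM in CBE-KO. The groups did not overlap, and Mdm2 fell by 21.6% (log2 fold change -0.35 ± 0.06, SE; edgeR adjusted p = 6.37e-05). The count of Mdm2 divided by that of Trp53 in the same library, a value that does not depend on scaling, was 0.239 and 0.255 in WT and 0.321 and 0.290 in CBE-KO. Both CBE-KO libraries therefore had more Mdm2 reads per Trp53 read than either WT library. With 2 libraries against 2, an exact permutation test (two-sided) cannot give a p under 0.333, so the ratios are descriptions.

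Sesn2 and Ccng1, targets outside the apoptosis branch, both fell. Sesn2 (ENSMUSG00000028893; chr4:132492804-132510456), a stress-response gene whose product restrains mTORC1, had 220 and 233 CPM in WT and 129 and 133 CPM in CBE-KO. It fell by 42.2%, the most of the 10 genes (log2 fold change -0.79 ± 0.05, SE; edgeR adjusted p = 1.73e-09), and 4.77% of tested genes had a lower value. Ccng1 (ENSMUSG00000020326; chr11:40748552-40755309), which encodes cyclin G1, had 176 and 174 CPM in WT and 118 and 116 CPM in CBE-KO. It fell by 33.3% (-0.58 ± 0.05, SE; edgeR adjusted p = 4.79e-08). Replicates of Ccng1 lay close together in both groups. Its count ratio to Trp53 was 0.354 and 0.351 in WT and 0.383 and 0.360 in CBE-KO, so its fall was nearly that of Trp53. For Sesn2 the ratio was 0.442 and 0.469 in WT and 0.419 and 0.412 in CBE-KO, lower in both CBE-KO libraries.

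**Figure D2:**
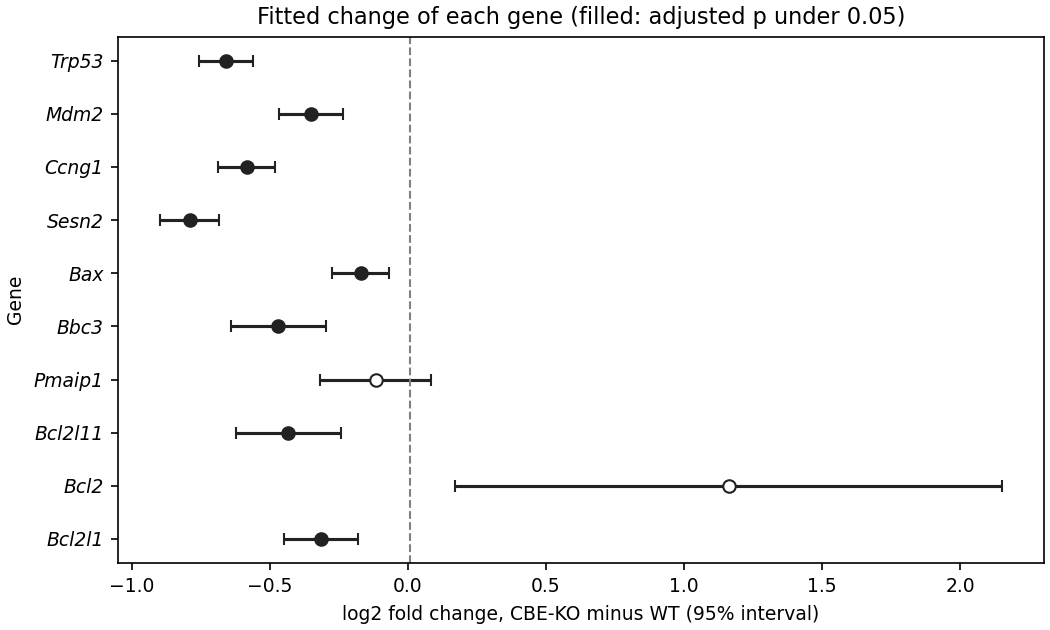
Fitted log2 fold change of each gene, CBE-KO minus WT, with its 95% interval. Filled points passed an adjusted p of 0.05 and the dashed line is the median of all tested genes. The 8 filled points lie between -0.79 and -0.17, and the open points are Pmaip1 and Bcl2.

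Bax (ENSMUSG00000003873; chr7:45461695-45466903), the pore-forming effector, had 218 and 208 CPM in WT and 186 and 193 CPM in CBE-KO. The groups did not overlap, but the gap was narrow. It fell by 11.2%, the least of the genes that passed (log2 fold change -0.17 ± 0.05, SE; edgeR adjusted p = 0.00971). The call was lost with library totals alone (-0.07, edgeR adjusted p = 0.295) and without CBE-KO replicate 1 (-0.14, edgeR adjusted p = 0.122). The count ratio of Bax to Trp53 was 0.439 and 0.419 in WT and 0.602 and 0.600 in CBE-KO. The shift was 0.49 on the log2 scale, the widest of the 5 ratios to Trp53.

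Among the BH3-only genes, Bbc3 and Bcl2l11 fell and Pmaip1 did not pass. Bbc3 (ENSMUSG00000002083; chr7:16308398-16318334), which encodes PUMA, had 41.1 and 46.1 CPM in WT and 31.7 and 31.2 CPM in CBE-KO. It fell by 27.7% (log2 fold change -0.47 ± 0.08, SE; edgeR adjusted p = 0.000155). Bcl2l11 (ENSMUSG00000027381; chr2:128126038-128162547), which encodes BIM and is best known as a FOXO target rather than a p53 target, had 47.8 and 41.4 CPM in WT and 30.6 and 35.7 CPM in CBE-KO. It fell by 25.9% (-0.43 ± 0.09, SE; edgeR adjusted p = 0.000884); its replicates lay further apart than those of the other genes of this class, without overlap between groups. Pmaip1 (ENSMUSG00000024521), which encodes NOXA, had 24.1 and 23.9 CPM in WT and 22.8 and 21.4 CPM in CBE-KO. The difference on the log2 scale was -0.12 with a 95% interval of -0.32 to 0.08 (edgeR adjusted p = 0.350), an interval that holds both no change and a fall as large as that of Bax.

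The anti-apoptotic genes did not move alike. Bcl2l1 (ENSMUSG00000007659; chr2:152758732-152833803), which encodes Bcl-xL, had 67.8 and 66.2 CPM in WT and 53.3 and 54.6 CPM in CBE-KO. Its replicates lay close together, and it fell by 19.5% (log2 fold change -0.31 ± 0.06, SE; edgeR adjusted p = 0.000651). Bcl2 (ENSMUSG00000057329; chr1:106538176-106714290), the founding member of the family, was near the floor: WT had 8 and 8 counts and CBE-KO had 16 and 23. In CPM these were 0.548 and 0.582 against 0.986 and 1.58. The log2 fold change was 1.16 with a 95% interval of 0.17 to 2.15 and did not pass after adjustment (edgeR adjusted p = 0.0547). It passed as higher with upper-quartile scaling (edgeR adjusted p = 0.0469), with library totals (0.0336) and with robust moderation (0.0455), and its adjusted p was 0.352 in DESeq2. In RefSeq the spans of Bcl2, Bcl2l1 and Bcl2l11 overlap other genes (a noncoding RNA and a microRNA, Cox4i2 and a pseudogene, and Acoxl). Without a stated strand setting, reads in the shared stretches cannot be assigned with certainty.

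Ratios of pro-apoptotic to anti-apoptotic transcripts depended on the anti-apoptotic gene. Against Bcl2l1, which fell, they shifted by at most 0.19 on the log2 scale and in both directions. The count ratio of Bax to Bcl2l1 was 3.22 and 3.14 in WT and 3.48 and 3.54 in CBE-KO. That of Pmaip1 to Bcl2l1 was also higher in both CBE-KO libraries, at 0.356 and 0.361 against 0.428 and 0.393. That of Bbc3 to Bcl2l1 was lower, at 0.606 and 0.696 against 0.595 and 0.572. For Bcl2l11 to Bcl2l1 the groups overlapped, at 0.705 and 0.625 against 0.573 and 0.654. Against Mcl1, an anti-apoptotic gene that rose and is described below, all 4 ratios were lower in both CBE-KO libraries; these were added after the values were seen. The ratio of Bbc3 to Mcl1 was 0.0536 and 0.0587 in WT and 0.0333 and 0.0326 in CBE-KO. This was a log2 difference of -0.77, and the others were -0.73 for Bcl2l11, -0.47 for Bax and -0.42 for Pmaip1.

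**Figure D3:**
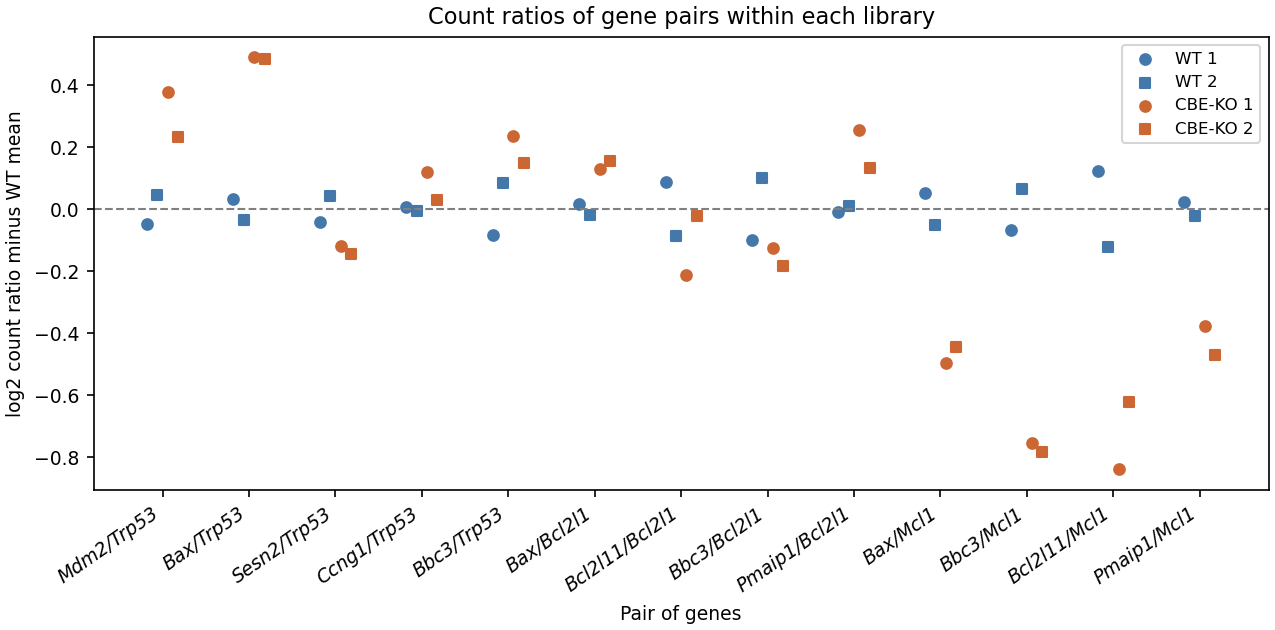
Count ratios of 13 gene pairs within each library, on the log2 scale relative to the WT mean, with WT in blue and CBE-KO in orange. Bax to Trp53 and Mdm2 to Trp53 stand highest in CBE-KO, and the 4 ratios to Mcl1, added after its values were seen, lie lowest. Of the 13 pairs only Bcl2l11 to Bcl2l1 overlaps between groups. Pairs that share Trp53, Bcl2l1 or Mcl1 are not independent, and no share over all gene pairs was computed. Among single tested genes, 70.4% had no overlap.

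Further p53 targets from a list of 29 included 15 that fell. Of 27 tested, 15 were lower, 5 were higher and 7 did not pass, with a median log2 fold change of -0.41 against 0.01 over all tested genes. The share called was 74.1%, against 43.1% of all tested genes, of which 21.5% were lower and 21.6% higher. DESeq2 called 14 lower and 4 higher, where 23.8% of all its genes were called. The 15 lower in edgeR included Wrap53, the gene beside Trp53, with a log2 fold change of -0.49 (edgeR adjusted p = 0.000128). Gadd45a, a DNA damage-inducible growth arrest gene, had 97.4 and 89.5 CPM in WT and 54.8 and 56.2 CPM in CBE-KO. It fell by 40.6% (edgeR adjusted p = 4.22e-08). Phlda3, a p53-induced repressor of Akt, had 43.6 and 46.6 CPM against 28.1 and 27.0 CPM (log2 fold change -0.71, edgeR adjusted p = 1.46e-06), and Aen, a p53-induced nuclease, fell by 0.61 on the log2 scale (edgeR adjusted p = 6.02e-08). The noncoding gene Pvt1 had the lowest log2 fold change of the list, -0.88, with 119 and 97 counts in WT against 65 and 62 (edgeR adjusted p = 0.00152). In Gadd45a, Phlda3, Aen and Pvt1 both CBE-KO libraries lay below both WT libraries, which the rule for naming genes required. The genes that rose included the best known arrest gene. Cdkn1a, which encodes the cyclin-dependent kinase inhibitor p21, had 27.2 and 28.4 CPM in WT and 37.4 and 40.2 CPM in CBE-KO. Cdkn1a rose by 0.48 ± 0.08 on the log2 scale (SE; edgeR adjusted p = 0.000144). Ercc5, an excision repair endonuclease, rose by 0.66 (edgeR adjusted p = 2.63e-06). The pluripotent markers, of which 8 of 10 were lower, moved with this list, and their part in its median was not tested.

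Regulators and relatives of p53 moved in both directions. Of 19 listed, 18 were tested, 7 were lower, 4 were higher and 7 did not pass, with a median log2 fold change of -0.08. The share called was 61.1%, against 43.1% of all tested genes. DESeq2 called 4 lower and 1 higher, where 23.8% of all its genes were called. Cdkn2a, whose Arf product inhibits Mdm2 and whose p16 product inhibits cyclin-dependent kinases, went from 75 and 67 counts to 550 and 503. In CPM these were 5.13 and 4.87 against 33.9 and 34.6, a 6.83-fold rise (log2 fold change 2.77 ± 0.12, SE; edgeR adjusted p = 1.29e-11). Counts per gene do not separate its Arf and p16 transcripts. Trp73, a relative of Trp53, fell from 63 and 74 counts to 37 and 23 (-1.31 ± 0.27, SE; edgeR adjusted p = 0.000682), while Trp63, another relative, had 0 to 6 counts and was not tested. Sirt1, a deacetylase that acts on p53, fell by 0.54 on the log2 scale, and Rchy1, a p53-induced ubiquitin ligase for p53, by 0.39 (edgeR adjusted p = 1.08e-06 and 0.00290). Hipk2, a kinase that phosphorylates p53, was higher by 0.46 (edgeR adjusted p = 0.00736), a call lost in DESeq2 (adjusted p = 0.104) and without CBE-KO replicate 1 (edgeR adjusted p = 0.0604). Mdm4, the partner of Mdm2, had 2793 and 2836 counts in WT against 3383 and 3014 in CBE-KO, a difference of 0.06 on the log2 scale with a 95% interval of -0.04 to 0.17 (edgeR adjusted p = 0.325). With library totals alone it passed as higher (edgeR adjusted p = 0.0107).

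**Figure D4:**
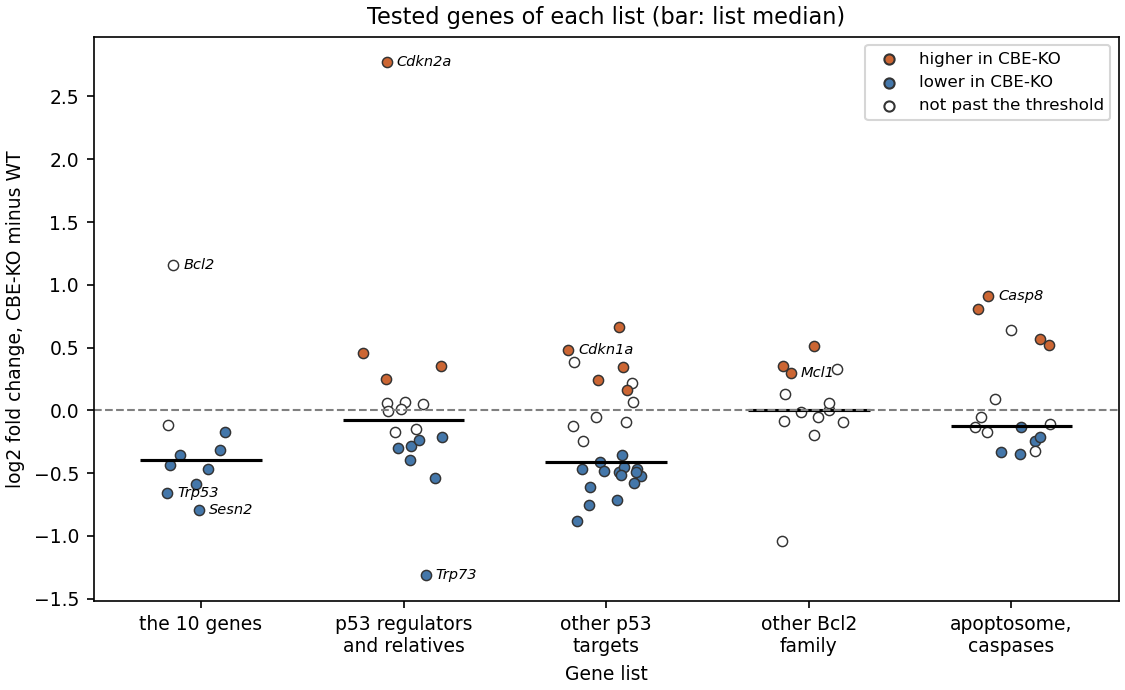
Log2 fold change, CBE-KO minus WT, of every tested gene in 5 lists, coloured orange where higher and blue where lower at an adjusted p under 0.05, with bars at list medians and a dashed line at the median of all genes. The 10 genes and the other p53 targets have medians of -0.39 and -0.41, and Cdkn2a stands apart at 2.77.

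In the rest of the Bcl2 family 3 genes rose: Mcl1, Bcl2l2 and Bid. Of 17 further members, 13 were tested, 3 were higher, none was lower and 10 did not pass. The share called was 23.1%, against 43.1% of all tested genes, and the difference between these shares was not tested. The median log2 fold change was 0.01. No member was lower at an unadjusted p under 0.05 in edgeR, nor after adjustment in DESeq2. Mcl1, an anti-apoptotic gene of rapid turnover, had 766 and 786 CPM in WT and 953 and 956 CPM in CBE-KO, a rise of 23.0% (log2 fold change 0.30 ± 0.04, SE; edgeR adjusted p = 3.08e-05). Bcl2l2, which encodes anti-apoptotic Bcl-w, rose from 15.8 and 17.2 to 24.0 and 23.0 CPM (0.51 ± 0.11, SE; edgeR adjusted p = 0.000775). Bid, a BH3-only gene, was higher by 0.36 (edgeR adjusted p = 0.00338), a call that DESeq2 did not make (adjusted p = 0.0784). The anti-apoptotic genes differed among themselves, with Bcl2l1 lower and Mcl1 and Bcl2l2 higher in both CBE-KO libraries.

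Downstream of the mitochondrion, 16 genes of the apoptosome, caspases and their inhibitors were tested: 4 were higher, 5 were lower and 7 did not pass, with a median log2 fold change of -0.12. The share called was 56.2%, against 43.1% of all tested genes, with 21.6% higher and 21.5% lower. DESeq2 called 4 higher and 4 lower, where 23.8% of all its genes were called. The difference between these shares was not tested and is read as no result about the list. The 4 that rose were Casp8, Casp6, Casp9 and Apaf1. Apaf1, the scaffold that activates caspase-9, had 28.7 and 26.1 CPM in WT and 39.9 and 38.9 CPM in CBE-KO (log2 fold change 0.52 ± 0.08, SE; edgeR adjusted p = 6.60e-05). Casp9 itself was higher by 0.57 (edgeR adjusted p = 0.00203). Casp8, the initiator of the death receptor branch, rose from 66 and 84 counts to 174 and 134 (0.91 ± 0.19, SE; edgeR adjusted p = 0.000694), and Casp6 rose by 0.80 (edgeR adjusted p = 0.000281). Diablo, an antagonist of the inhibitors of apoptosis, fell by 0.34 on the log2 scale (edgeR adjusted p = 0.00134).

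The genes whose profile over the 4 libraries was nearest to that of Trp53, by Euclidean distance between centred log2 CPM among 11120 genes, were Spata2, Noc3l and Kirrel2, at distances of 0.014, 0.0184 and 0.0193. Their log2 fold changes were -0.66, -0.66 and -0.65. With 4 libraries in 2 groups such a profile is mostly the difference between groups.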

How the data were processed

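RNA-seq of 4 libraries was analysed, 2 WT and 2 CBE-KO. Capture-C, the other assay of the series (6 samples), is not analysed here. Each deposited table holds raw counts of 1 library by Ensembl identifier, in whole numbers and without normalization, as the values show. Per the submitters' processing notes, HISAT2 2.1.0, HTSeq 0.9.1, Bowtie2 2.3.1 and DESeq2 1.18.1 and the build mm10 were used, with no role stated. The strand setting, the annotation release and the treatment of reads that match several genes are not given in the sources used here.

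Identifiers were matched to symbols by a supplied table (52403 of 52636). Genes kept by filterByExpr (16005) were tested with edgeR 4.0.16 in R 4.3.3 (glmQLFit and glmQLFTest, two-sided, no covariate), with TMM scaling (trimmed mean of M-values). P-values were adjusted by Benjamini-Hochberg over all tested genes, with a threshold of 0.05. CPM are TMM-scaled, and standard errors and 95% intervals are those of the log2 fold change in that fit. Scripts were tested on simulated counts.

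The genes described and the gene lists were chosen with earlier results of these data known. Named genes are the 10 genes, Cdkn1a, Mdm4 and Mcl1, and up to 5 genes per list, those that moved furthest on the log2 scale among genes past the threshold whose groups did not overlap. The 3 genes nearest to Trp53 in profile were added, as was Wrap53, the gene beside Trp53. Alternatives were DESeq2 1.42.0, 3 other scalings, 2 other filters, the replicate number as a block, robust moderation, a threshold of 0.01, a minimum absolute log2 fold change of 1, and each library left out in turn. Replicates are separate samples in the labels. Separate cultures are not stated, so p-values measure only the spread between these libraries. Promoter sequences are RefSeq's, on GRCm38.p6, the assembly that mm10 denotes.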

Additional observations from a re-analysis of the deposited data

How the results depend on the processing

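The number of changed genes, 6895 in edgeR, was 4119 in DESeq2 and 1383 when calls also had to reach 1 on the absolute log2 scale. That requirement left 0 of the 10 genes, 2 of the p53 regulators and relatives, and 0 of the other p53 targets, the other Bcl2 family and the apoptosome and caspase list, whose called changes were all smaller. Of the p53 regulators and relatives, 11 in edgeR, DESeq2 called 5 and a threshold of 0.01 left 7. Leaving out 1 library gave 7 to 10 of them (7 without CBE-KO replicate 1), 7 to 8 of the 10 genes and 5492 to 6420 genes in all, where the lone library of a group is assumed to vary like the other group. No named gene that was followed changed direction under any alternative that tested it. Wrap53 and the cell type markers were not followed. The fit with a replicate block called 7027 genes, including 8 of the 10 genes, the same 8 as without it. Same-numbered libraries deviated from their group means with a correlation of 0.0346, and the labels do not say that they were prepared together. Bcl2 had 8 to 23 counts per library. Its log2 fold change was 1.47 without CBE-KO replicate 1, 0.795 without CBE-KO replicate 2, and 1.12 and 1.20 without WT replicates 1 and 2.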
